A study of Mus musculus with 2 samples.

Results

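The common gamma chain receptors are a family of cytokine receptors on lymphocytes that signal through 1 shared chain, encoded by Il2rg. The 8 genes followed here were chosen by name, out of 28692 genes in the deposited tables: the shared chain Il2rg, the interleukin 2 receptor chains Il2ra and Il2rb, and the private chains Il7r, Il4ra, Il21r, Il15ra and Il9r. They were read in regulatory T cells (Tregs), CD4 T cells that restrain immune responses under the transcription factor Foxp3, by counting UMIs (unique molecular identifiers, 1 per transcript captured) cell by cell. All cells were sorted from spleens of male B6 Pparg-Tdt.Foxp3-Gfp mice at 8 weeks of age, in which red and green fluorescent reporters follow Pparg, the gene of the nuclear receptor PPARg, and Foxp3. Tregs labelled low for PPARg made up the first library and Tregs labelled negative for it the second, each from a pool of 2 or 3 mice, so both groups carried both reporters and each group was 1 library. No difference given here has a replicate check and no test between groups was possible. Intervals are given at 95% and hold counting error alone, and fewer cells using a gene cannot be told apart from less RNA per cell in a summed count.

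The deposited PPARg-low library held 1992 barcodes and 3227201 UMIs, and the PPARg-negative library 2902 barcodes and 6114403 UMIs. A limit of 10% mitochondrial UMIs per cell kept 1619 PPARg-low and 2633 PPARg-negative cells, whose medians were 1517 and 2171 UMIs. The kept cells of the 2 libraries shared 4 barcode sequences. Pparg had 43 UMIs in the PPARg-low library and 0 in the PPARg-negative library, and Foxp3 had 100 and 146 UMIs. The deposited files of the PPARg-low library carry a tag for positive rather than low, and the label's word is used throughout. Each of the 7 Treg identity genes in the tables was detected in both libraries. Of 5 myeloid markers, S100a8 and S100a9 were at 0 UMIs in both, Lyz2 had 3 UMIs (PPARg-low) and 8 UMIs (PPARg-negative), Csf1r 1 and 0, and Cst3 777 and 857. Of 4 markers of natural killer and innate lymphoid cells, Ncr1 was at 0 UMIs in both, Klrb1c had 11 UMIs (PPARg-low) and 7 UMIs (PPARg-negative), Klrd1 0 and 1, and Eomes 0 and 24. Cells with under 20% of UMIs from ribosomal protein genes, called ribosome-poor, were 951 of 1619 PPARg-low cells (58.7%) and 614 of 2633 PPARg-negative cells (23.3%), and the others are called ribosome-rich. Ribosome-poor cells had medians of 978 UMIs (PPARg-low) and 853 UMIs (PPARg-negative), ribosome-rich cells 2294 and 2455 UMIs. Their median mitochondrial shares were 6.80 and 6.92% in ribosome-poor cells, against 2.74 and 2.29% in ribosome-rich cells, and the part of cell quality in any difference between the 2 kinds of cells was not tested. Median ribosomal shares were 10.1% (PPARg-low) and 12.5% (PPARg-negative) in ribosome-poor cells, and 27.9 and 37.8% in ribosome-rich cells. A ratio between the libraries within one kind of cell therefore does not compare cells of like ribosomal share.

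In this receptor family each cytokine is bound by 1 or 2 private chains, which pair with the shared gamma chain. The shared chain brings the kinase Jak3, and the signalling chain paired with it brings Jak1. Together these kinases activate STAT proteins, mainly Stat5 for interleukins 2, 7, 9 and 15, Stat6 for interleukin 4 and Stat3 for interleukin 21. Tregs are known for high levels of the high-affinity interleukin 2 receptor chain Il2ra (CD25) and low levels of Il7r (CD127), and depend on interleukin 2 made by other T cells.

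The 8 genes lie on 5 chromosomes of mm10 (GENCODE M21). Il2ra (ENSMUSG00000026770, chromosome 2, 11642807 to 11693193, plus strand) lies 12097 bases before Il15ra (ENSMUSG00000023206, 11705290 to 11734317, plus strand). Il4ra (ENSMUSG00000030748, chromosome 7, 125552120 to 125579474, plus strand) lies 23955 bases before Il21r (ENSMUSG00000030745, 125603429 to 125633570, plus strand). Il7r (ENSMUSG00000003882, 9505788 to 9530176) and Il2rb (ENSMUSG00000068227, 78479256 to 78495271) are both on the minus strand of chromosome 15, far from each other. Il2rg (ENSMUSG00000031304) is on chromosome X, 101264378 to 101268255, and Il9r (ENSMUSG00000020279) on chromosome 11, 32187541 to 32200279, both on the minus strand. The predicted genes Gm20489, which overlaps Il2rg, and Gm44876, antisense to Il4ra, had 0 UMIs in both libraries.

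Promoter sequence was read from RefSeq (GRCm38.p6) for 7 of the 8 genes, from 250 bases before to 50 bases after the gene start. The 2 shown belong to Il2ra and Il7r, 2 of the receptor chains whose levels differed in opposite directions in ribosome-rich cells. Capitals in Il2ra (chr2:11642542-11642841, plus strand) mark a match to the NF-kB motif (GGGA, 4 bases of any kind, CC), and capitals in Il7r (chr15:9529827-9530126, minus strand) a match to TTCNNNGAA, the STAT motif.
Il2ra: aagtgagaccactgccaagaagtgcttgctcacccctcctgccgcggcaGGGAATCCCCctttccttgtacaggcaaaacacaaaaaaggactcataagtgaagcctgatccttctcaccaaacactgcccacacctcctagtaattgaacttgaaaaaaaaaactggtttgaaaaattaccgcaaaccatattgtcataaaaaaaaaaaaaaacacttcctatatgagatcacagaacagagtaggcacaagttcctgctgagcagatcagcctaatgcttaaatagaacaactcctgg
Il7r: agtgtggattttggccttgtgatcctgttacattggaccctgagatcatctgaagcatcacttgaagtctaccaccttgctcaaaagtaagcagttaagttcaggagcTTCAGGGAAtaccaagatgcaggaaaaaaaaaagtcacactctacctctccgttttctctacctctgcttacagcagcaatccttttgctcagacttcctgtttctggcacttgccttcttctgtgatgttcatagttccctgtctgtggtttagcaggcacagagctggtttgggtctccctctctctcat
Motifs were searched on both strands in 32851 promoters of the same length. The NF-kB motif was found in 20.7% of them, TTCNNNGAA in 8.30% and the forkhead motif TGTTTAC in 3.65%. AGGTCA, which is only part of a PPAR site, was found in 16.3%. The Il21r promoter held an AGGTCA, a forkhead and an NF-kB match, and the Il2rg, Il4ra, Il9r and Il15ra promoters held none of the 4 motifs. Such matches are letters found in a window and say nothing about binding in these cells.

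Over all cells, the PPARg-low library had higher levels of 4 of the 8 receptor genes and lower levels of none by the size rule used here. A gene was called higher or lower when its ratio of CPM (a gene's UMIs per 1e6 UMIs of the same cells) was at least 1.5 in either direction with the counting interval on the same side of 1, and genes with 30 or more UMIs over both sides were counted as measured. By that rule 24.2% of 9224 measured genes were called higher and 4.47% lower, and the median log2 ratio was 0.49 over the 8 receptors and 0.29 over all measured genes. The 4 higher genes were Il7r, Il2rg, Il15ra and Il9r, and they are taken by role, with each value also given within ribosome-rich and ribosome-poor cells. Within ribosome-rich cells 3 receptors were higher and 2 lower, where 17.2% of 8564 genes were higher and 3.92% lower. Within ribosome-poor cells 0 of 7 measured receptors were higher and 1 was lower, where 6.82% of 6540 genes were higher and 5.40% lower.

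**Figure D1:**
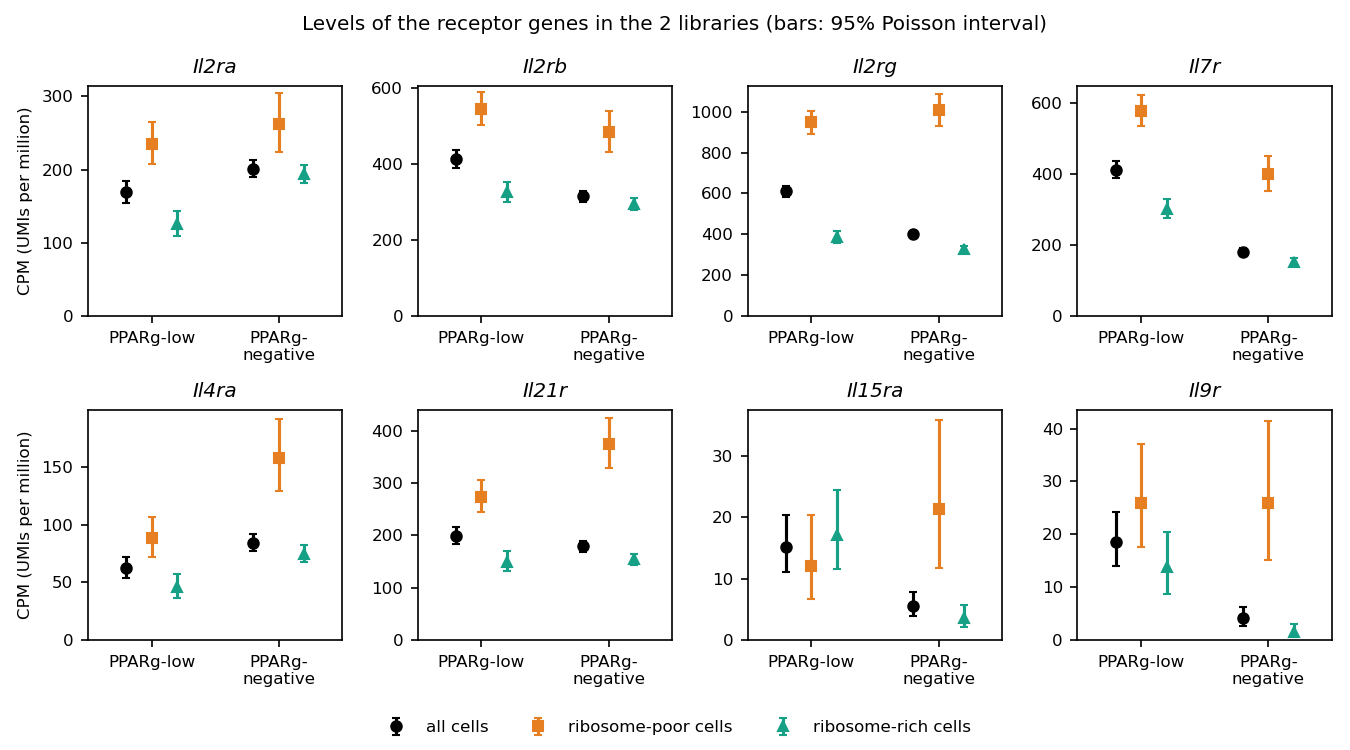
Level of each receptor gene in CPM (y axis, from 0, own scale per gene) in the PPARg-low and PPARg-negative libraries, for all cells (circles), ribosome-poor cells (squares) and ribosome-rich cells (triangles), with 95% Poisson intervals. Il2rg lies at 948 and 1007 CPM in ribosome-poor cells and at 386 and 326 CPM in ribosome-rich cells, whereas Il7r is higher in the PPARg-low library in both kinds of cells.

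The shared chain was the receptor gene with the most UMIs. Il2rg had 1769 UMIs (609.6 CPM) in the PPARg-low library and 2371 UMIs (402 CPM) in the PPARg-negative library, a ratio of 1.52 (1.42 to 1.61). Within one kind of cell this difference was much smaller. Ribosome-rich cells had 386 CPM in the PPARg-low and 326 CPM in the PPARg-negative library (1.18, 1.08 to 1.30), and ribosome-poor cells 948 and 1007 CPM (0.941, 0.853 to 1.04). The pooled call also ended at a limit of 5% mitochondrial UMIs (log2 0.45), when ribosomal and mitochondrial UMIs were left out of the denominator (log2 0.34), when cells were weighted equally (log2 0.56) and when ratios were centred on the median of all genes (log2 0.31).

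The interleukin 2 receptor is built from Il2ra, which raises its affinity, and Il2rb and Il2rg, which signal. Il2ra had 490 UMIs (169 CPM) in the PPARg-low and 1187 UMIs (201 CPM) in the PPARg-negative library, a ratio of 0.839 (0.754 to 0.933) that was not called. In ribosome-rich cells Il2ra was lower in the PPARg-low library, at 125 CPM (219 UMIs) against 194 CPM (1015 UMIs), a ratio of 0.647 (0.557 to 0.750). This call ended, with the same direction, when cells were thinned to 750 UMIs (log2 -0.57) and when the limit between the kinds of cells was set at 25% (log2 -0.56). In ribosome-poor cells Il2ra had 235 CPM in the PPARg-low and 262 CPM in the PPARg-negative library, with a ratio of 0.895 (0.737 to 1.09) that was not distinguishable from 1 at this depth. The interleukin 2 and interleukin 15 receptor chain Il2rb had 1199 UMIs (413 CPM) in the PPARg-low and 1861 UMIs (316 CPM) in the PPARg-negative library. Its ratio of 1.31 (1.22 to 1.41) was not called, and was lower among ribosome-rich cells (1.11, 1.0 to 1.22) and ribosome-poor cells (1.13, 0.982 to 1.29).

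Il7r, the private chain of the interleukin 7 receptor and a partner of Crlf2 in the receptor for thymic stromal lymphopoietin, was the receptor with the clearest difference. It had 1193 UMIs (411 CPM) in the PPARg-low library and 1065 UMIs (181 CPM) in the PPARg-negative library, 2.28-fold higher (2.09 to 2.48). Ribosome-rich cells had 301 CPM in the PPARg-low and 153 CPM in the PPARg-negative library, a ratio of 1.96 (1.76 to 2.20). Their median ribosomal shares were unlike (27.9 and 37.8%), and levels at like share are given with the bins below. In ribosome-poor cells the levels were 578 CPM and 399 CPM, and the ratio of 1.45 (1.25 to 1.68) lay above 1 but under the 1.5-fold rule. Centred on the median of all genes, the all-cell log2 ratio of Il7r was 0.90, and the Il7r call over all cells and in ribosome-rich cells held under each alternative tried.

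Il4ra, the interleukin 4 receptor chain, went the other way. It had 182 UMIs (62.7 CPM) in the PPARg-low and 497 UMIs (84.3 CPM) in the PPARg-negative library, a ratio of 0.744 (0.625 to 0.884) that was not called. Within each kind of cell it was called lower, at 45.8 CPM (PPARg-low) against 75.0 CPM (PPARg-negative) in ribosome-rich cells (0.611, 0.474 to 0.778) and 88.4 against 158 CPM in ribosome-poor cells (0.557, 0.420 to 0.740). The ribosome-poor call ended at a 5% mitochondrial limit (log2 -0.35, -1.30 to 0.61). Il21r, the interleukin 21 receptor and the neighbour of Il4ra, had 578 UMIs (199 CPM) in the PPARg-low and 1054 UMIs (179 CPM) in the PPARg-negative library, with a ratio of 1.11 (1.01 to 1.23). The Il21r ratio was 0.973 (0.843 to 1.12) among ribosome-rich cells and 0.730 (0.616 to 0.866) among ribosome-poor cells, neither of them called.

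Il15ra and Il9r rest on few UMIs. Il15ra, which presents interleukin 15, had 44 UMIs (15.2 CPM) in the PPARg-low library and 33 UMIs (5.60 CPM) in the PPARg-negative library, 2.71-fold higher (1.69 to 4.39). Il9r, the interleukin 9 receptor, had 54 UMIs (18.6 CPM) in the PPARg-low and 25 UMIs (4.24 CPM) in the PPARg-negative library, 4.39-fold higher (2.69 to 7.36). Both differences lay in ribosome-rich cells, where Il15ra had 30 against 19 UMIs (4.74-fold, 2.58 to 8.90) and Il9r 24 against 8 UMIs (9.0-fold, 3.91 to 23.2). These cells were unlike in ribosomal share. At 36% and more Il9r had 2 UMIs in 60 PPARg-low cells and 0 UMIs in 1224 PPARg-negative cells. At 20 to 24% it had 9.50 CPM (PPARg-low) and 6.08 CPM (PPARg-negative), and at 24 to 28% 24.6 and 11.1 CPM. At 28 to 32% the levels were 6.29 and 5.94 CPM, and at 32 to 36% 12.7 and 1.15 CPM, all from few UMIs. In ribosome-poor cells Il15ra had 14 UMIs in either library, too few to count as measured, and Il9r had 30 UMIs in the PPARg-low and 17 in the PPARg-negative library, a ratio of 1.0 (0.536 to 1.94).

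**Figure D2:**
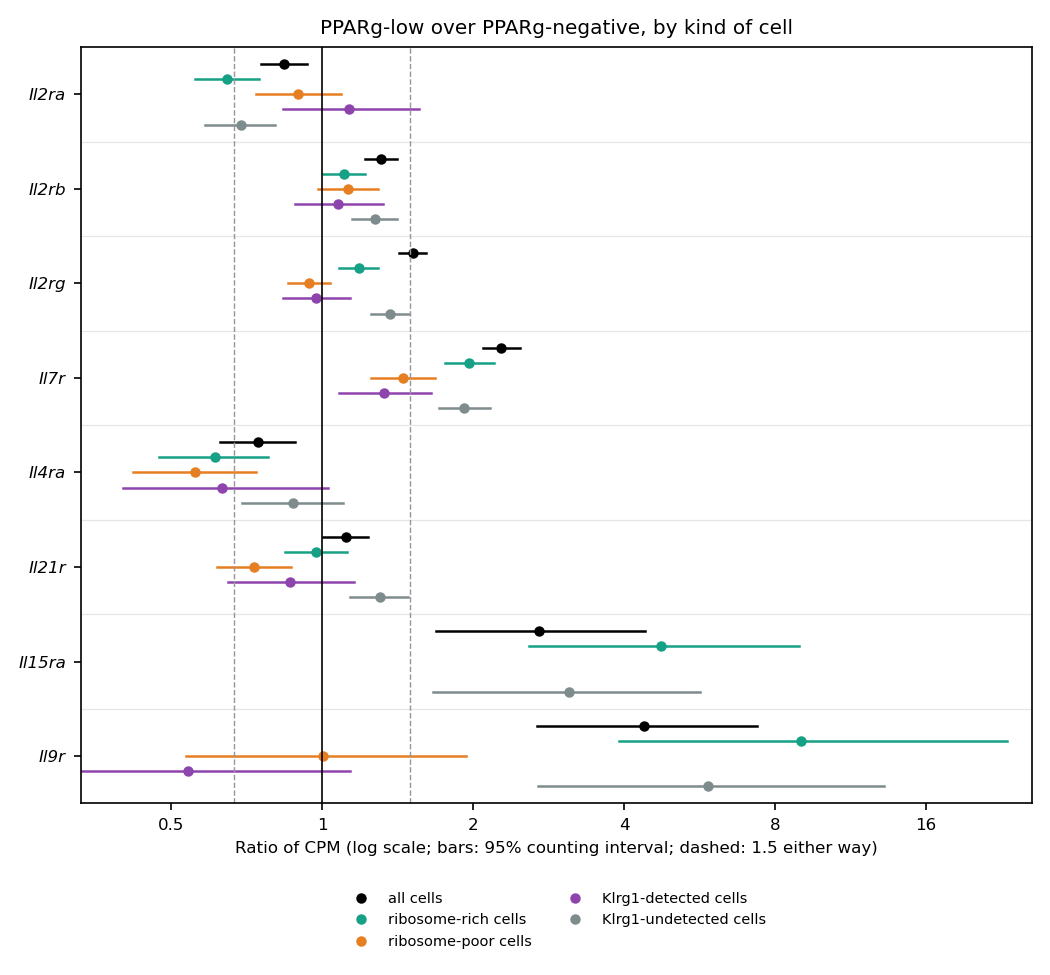
Ratio of CPM, PPARg-low over PPARg-negative (x axis, log scale), for each receptor gene in all, ribosome-rich, ribosome-poor, Klrg1-detected and Klrg1-undetected cells, with 95% counting intervals; dashed lines mark 1.5 in either direction and combinations under 30 UMIs are not drawn. Il7r lies right of 1 in all 5 sets of cells, Il4ra left of 1 in all 5, and Il2rg is past 1.5 only when all cells are pooled.

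When each cell was thinned to 750 UMIs, 1381 PPARg-low and 2394 PPARg-negative cells could be used and 238 and 239 shallower ones were left out. Il7r then had a UMI in 28.5% (26.2 to 31.0%, exact binomial) of the PPARg-low cells, against 14.3% (12.9 to 15.8%) of the PPARg-negative ones. Il2rg was found in 37.1% (34.6 to 39.8%) and 27.5% (25.7 to 29.4%), and Il2rb in 26.5% (24.2 to 28.9%) and 20.1% (18.5 to 21.7%), in the same order. Il2ra had a UMI in 10.8% (9.20 to 12.5%) of the PPARg-low cells, against 13.3% (12 to 14.8%) of the PPARg-negative ones, with overlapping intervals, and the intervals of Il4ra (4.56 and 6.27%), Il21r (13.7 and 12.7%) and Il15ra (1.16 and 0.418%) overlapped as well. Il9r had a UMI in 1.45% (0.887 to 2.23%) of the PPARg-low cells, against 0.418% (0.200 to 0.767%) of the PPARg-negative ones. No cell type that should lack these receptors was sorted. Cd79a and Lyz2, transcripts of B cells and myeloid cells, were found in 0.217 and 0.0724% of PPARg-low and in 0.0835 and 0.125% of PPARg-negative cells, and the interval of Cd79a in PPARg-negative cells (0.0101 to 0.301%) overlaps that of Il9r and Il15ra there (0.200 to 0.767%).

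Within ribosome-rich cells thinned in the same way, Il7r had a UMI in 22% (18.9 to 25.3%) of 660 PPARg-low cells, against 11.6% (10.2 to 13.1%) of 1980 PPARg-negative ones. Within ribosome-poor cells it had a UMI in 34.5% (31.1 to 38.1%) of 721 PPARg-low cells, against 27.3% (23.1 to 31.9%) of 414 PPARg-negative ones, with intervals that overlap. Il2ra had a UMI in 8.64% (6.61 to 11.0%) of ribosome-rich PPARg-low cells, against 12.5% (11.1 to 14%) of ribosome-rich PPARg-negative ones, with intervals barely apart. Il4ra had a UMI in 2.73% (1.62 to 4.28%) of ribosome-rich PPARg-low cells, against 5.61% (4.63 to 6.71%) of ribosome-rich PPARg-negative ones. Most cells showed few receptors at this depth: 74.8% of PPARg-low and 63.8% of PPARg-negative cells had a UMI of at least 1 of the 8 genes. A UMI of 3 receptors was found in 8.83% of PPARg-low and 4.72% of PPARg-negative cells. Among 15 pairs of the 6 receptors with most UMIs, a pair was counted when the share of 1 gene in cells with the other had an interval apart from that in cells without it, with either gene as the partner, and 0 pairs were counted in either library. At 500 UMIs 2 pairs in the PPARg-low and 3 in the PPARg-negative library were counted, and at 1000 UMIs 1 in each, all with the higher share beside the partner. Within ribosome-rich cells 0 pairs were counted in either library at 500 or 1000 UMIs. Within ribosome-poor cells only 1 higher and 1 lower pair were counted, both in the PPARg-negative library at 500 UMIs. The share of all gene pairs counted in this way was not computed.

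Ribosomal share moved with nearly all of the receptors, inside each library. In the PPARg-low library 7 of 8 receptors were higher in ribosome-poor than in ribosome-rich cells, where 27.8% of 7419 measured genes were higher and 8.32% lower. In the PPARg-negative library 6 of 7 measured receptors were higher, where 36.8% of 8255 genes were higher and 6.42% lower. The median log2 ratio was 0.91 over the receptors and 0.31 over all genes in the PPARg-low library, and 1.28 and 0.51 in the PPARg-negative library. Il2rg was 2.45-fold higher (2.23 to 2.70) in the PPARg-low and 3.09-fold higher (2.82 to 3.38) in the PPARg-negative library, and Il7r 1.92-fold (1.71 to 2.16) and 2.61-fold (2.26 to 3.0). Il4ra was 1.93-fold higher (1.43 to 2.62) in the PPARg-low and 2.11-fold (1.69 to 2.63) in the PPARg-negative library. Il21r was 1.83-fold (1.54 to 2.16) and 2.43-fold (2.1 to 2.81) higher, and Il2rb 1.68-fold (1.49 to 1.88) and 1.65-fold (1.45 to 1.86). The UMIs that define the split are part of the CPM denominator, and without ribosomal and mitochondrial UMIs in it the calls of Il2rb ended in the PPARg-low (log2 0.48) and PPARg-negative library (log2 0.28), as did that of Il9r in the PPARg-low library (log2 0.65), which left 5 receptors higher in each. The share of all genes called with that denominator was not counted, so these 5 have no background to be read against.

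Il2ra and Il15ra stood apart. Il2ra was 1.87-fold higher in ribosome-poor cells of the PPARg-low library (1.56 to 2.25) and 1.35-fold in the PPARg-negative library (1.14 to 1.59), where it was not called and lay below the median of all genes by 0.07 on the log2 scale. Il15ra had 14 UMIs in ribosome-poor and 30 UMIs in ribosome-rich cells of the PPARg-low library (0.706, 0.346 to 1.37), and 14 and 19 UMIs in the PPARg-negative library (5.89, 2.73 to 12.4). With ratios centred on the median of all genes, 4 receptors were still higher in ribosome-poor cells of the PPARg-low library (Il2ra, Il2rg, Il7r and Il4ra) and 4 in those of the PPARg-negative library (Il2rg, Il7r, Il21r and Il15ra), where the calls of Il2rb (log2 0.21) and Il4ra (log2 0.57) ended. At a 5% mitochondrial limit 4 were higher in the PPARg-low library (Il2ra, Il2rg, Il7r and Il21r) and 3 in the PPARg-negative library (Il2rg, Il7r and Il21r). For neither alternative was the share of all genes called counted.

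The tie to ribosomal share was also read within cells split by Klrg1 detection, which does not hold the level of Klrg1 fixed. In PPARg-low cells with Klrg1 detected, Klrg1 had 2023 CPM in ribosome-poor and 1050 CPM in ribosome-rich cells. Detection also depends on depth, and PPARg-low cells with Klrg1 undetected had medians of 845 UMIs (ribosome-poor) and 2285 UMIs (ribosome-rich). In PPARg-low cells with Klrg1 detected, 7 of 7 measured receptors were higher in ribosome-poor cells, where 24.2% of 5959 genes were higher and 9.38% lower, and in those with Klrg1 undetected 6 of 6, where 26% of 4984 genes were higher and 10.4% lower. In PPARg-negative cells with Klrg1 undetected 6 of 6 were higher, where 34.6% of 8115 genes were higher and 7.07% lower. In the 141 PPARg-negative cells with Klrg1 detected 2 of 5 were higher, Il2rg at 2.06-fold (1.51 to 2.83) and Il7r at 1.76-fold (1.15 to 2.72), where 21.9% of 1441 genes were higher and 12.8% lower, while Il2ra lay at 0.942-fold (0.516 to 1.72) and Il2rb at 0.953-fold (0.650 to 1.40).

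The same was read in 9 bins of ribosomal share. In the PPARg-low library Il2rg had 1179 CPM (1007 to 1371) in cells with under 8% ribosomal UMIs, 564 CPM (469 to 672) at 16 to 20% and 338 CPM (260 to 431) at 36% and more. In the PPARg-negative library it had 1515 CPM (980.4 to 2236), 667 CPM (543 to 811) and 291 CPM (273 to 310) in those bins, the lowest of which held only 21 cells. Il7r had 681, 355 and 190 CPM in those bins of the PPARg-low library and 485, 307 and 149 CPM in the PPARg-negative library. Its ratio between the libraries did not change steadily along the range: at 16 to 20% it had 355 CPM in the PPARg-low and 307 CPM in the PPARg-negative library, at 20 to 24% it had 291 CPM (235 to 357) in the PPARg-low and 146 CPM (93.4 to 217) in the PPARg-negative library, and at 28 to 32% it had 338 and 158 CPM. Il2ra was lowest at 20 to 24% in both libraries, at 82.4 CPM (53.8 to 121) in the PPARg-low and 134 CPM (83.8 to 202) in the PPARg-negative library. From 28% upward it lay between 124 and 137 CPM in the PPARg-low library and between 192 and 218 CPM in the PPARg-negative library.

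**Figure D3:**
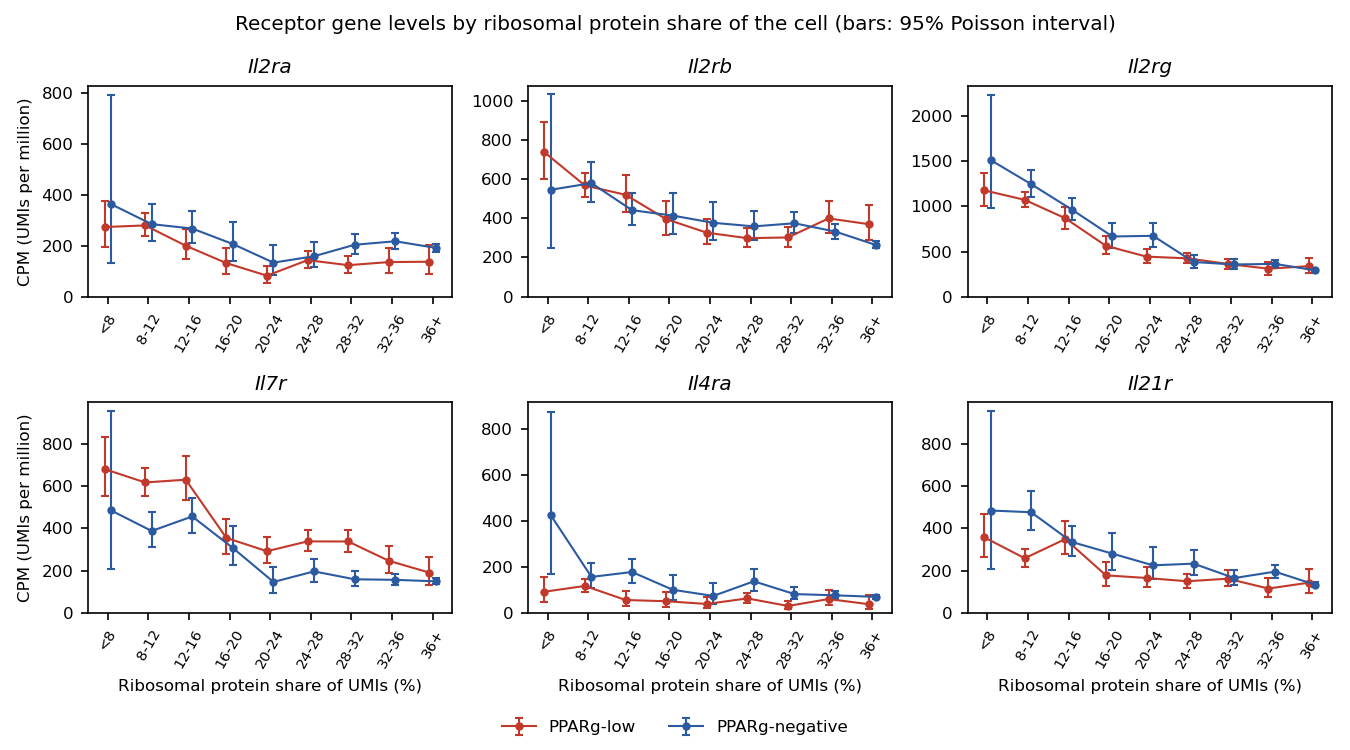
Level in CPM (y axis, from 0) of 6 receptor genes by the ribosomal protein share of the cell (x axis, 9 bins in percent of UMIs), in the PPARg-low (red) and PPARg-negative (blue) libraries, with 95% Poisson intervals. Il2rg falls along the axis in both libraries, from over 1000 CPM to about 300 CPM. At 20 to 24% Il2rg lies lower in the PPARg-low library (443 CPM, 373 to 523) than in the PPARg-negative library (674 CPM, 555 to 812). Il7r lies higher in the PPARg-low library in each of the 9 bins. Il2ra and Il4ra lie lower there in each, with intervals that overlap in several bins.

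Klrg1, a receptor of terminally differentiated lymphocytes, divides the cells in another way. A Klrg1 UMI was found in 899 of 1619 PPARg-low cells (55.5%) and 141 of 2633 PPARg-negative cells (5.36%). Of Klrg1-detected cells, 62.1% in the PPARg-low and 63.8% in the PPARg-negative library were ribosome-poor, and of Klrg1-undetected cells 54.6 and 21.0%. Detected cells had medians of 1564 UMIs (PPARg-low) and 1691 UMIs (PPARg-negative), undetected cells 1422 and 2192 UMIs. Among Klrg1-detected cells, 0 of 7 measured receptors differed between the libraries by the rule, where 4.62% of 6391 genes were called higher and 4.63% lower. Il7r had 473 CPM in PPARg-low and 355 CPM in PPARg-negative Klrg1-detected cells (1.33, 1.08 to 1.65), Il2rg 670.1 and 689.5 CPM (0.972, 0.835 to 1.14), and Il4ra 54.4 and 86.2 CPM (0.631, 0.401 to 1.03). Among Klrg1-undetected cells 3 receptors were called higher for PPARg-low, where 20% of 8641 genes were higher and 3.25% lower. They were Il7r at 329.6 against 172 CPM (1.92, 1.71 to 2.16), Il15ra with 20 against 29 UMIs (3.10, 1.66 to 5.67) and Il9r with 17 against 13 UMIs (5.88, 2.69 to 13.2). Il2ra lay at 139.6 CPM in PPARg-low and 203 CPM in PPARg-negative Klrg1-undetected cells, just short of the rule (0.688, 0.583 to 0.807).

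Within the PPARg-low library, none of the 8 receptors differed by the rule between Klrg1-detected and Klrg1-undetected cells, where 3.56% of 7419 genes were higher and 2.13% lower. Il7r was 1.43-fold (1.27 to 1.62), Il2ra 1.37-fold (1.13 to 1.66) and Il2rg 1.27-fold (1.15 to 1.40) in Klrg1-detected cells, and Il21r 0.759-fold (0.642 to 0.896) and Il4ra 0.737-fold (0.545 to 0.997). In ribosome-rich PPARg-low cells alone Il7r was higher, at 366 CPM in Klrg1-detected against 229 CPM in Klrg1-undetected cells (1.60, 1.33 to 1.92), and Il4ra was lower, at 33.8 against 59.1 CPM (0.571, 0.352 to 0.913), where 3.56% of 5667 genes were higher and 2.15% lower. In ribosome-poor PPARg-low cells 0 of 7 measured receptors differed, where 2.22% of 5191 genes were higher and 2.93% lower. Within the PPARg-negative library Il7r was 2.07-fold higher (1.67 to 2.54) and Il2rg 1.78-fold higher (1.53 to 2.06) in Klrg1-detected cells, 2 of 7 measured receptors, where 14.2% of 8255 genes were higher and 2.45% lower. Il9r had 12 UMIs in 141 Klrg1-detected cells (41.4 CPM) and 13 UMIs in 2492 Klrg1-undetected cells (2.32 CPM) of that library, too few to count as measured.

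The Il2rg difference in the PPARg-negative library shrank within one kind of cell, to 1.37-fold (1.04 to 1.77) among ribosome-rich cells and 0.881-fold (0.725 to 1.06) among ribosome-poor cells. Il7r was 1.69-fold higher (1.17 to 2.37) among the ribosome-rich cells and at 1.16-fold (0.866 to 1.54) among the ribosome-poor ones. In ribosome-rich cells of that library 5.48% of 7878 genes were higher and 0.660% lower in Klrg1-detected cells. In its ribosome-poor cells 3 of 6 measured receptors were lower where Klrg1 was detected, with 8.53% of 3410 genes higher and 6.57% lower. They were Il2ra at 164 against 292 CPM (0.563, 0.353 to 0.864), Il21r at 243 against 415 CPM (0.586, 0.401 to 0.834) and Il4ra at 98.5 against 177 CPM (0.558, 0.300 to 0.970), the detected side resting on 25, 37 and 15 UMIs in 90 cells.

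**Figure D4:**
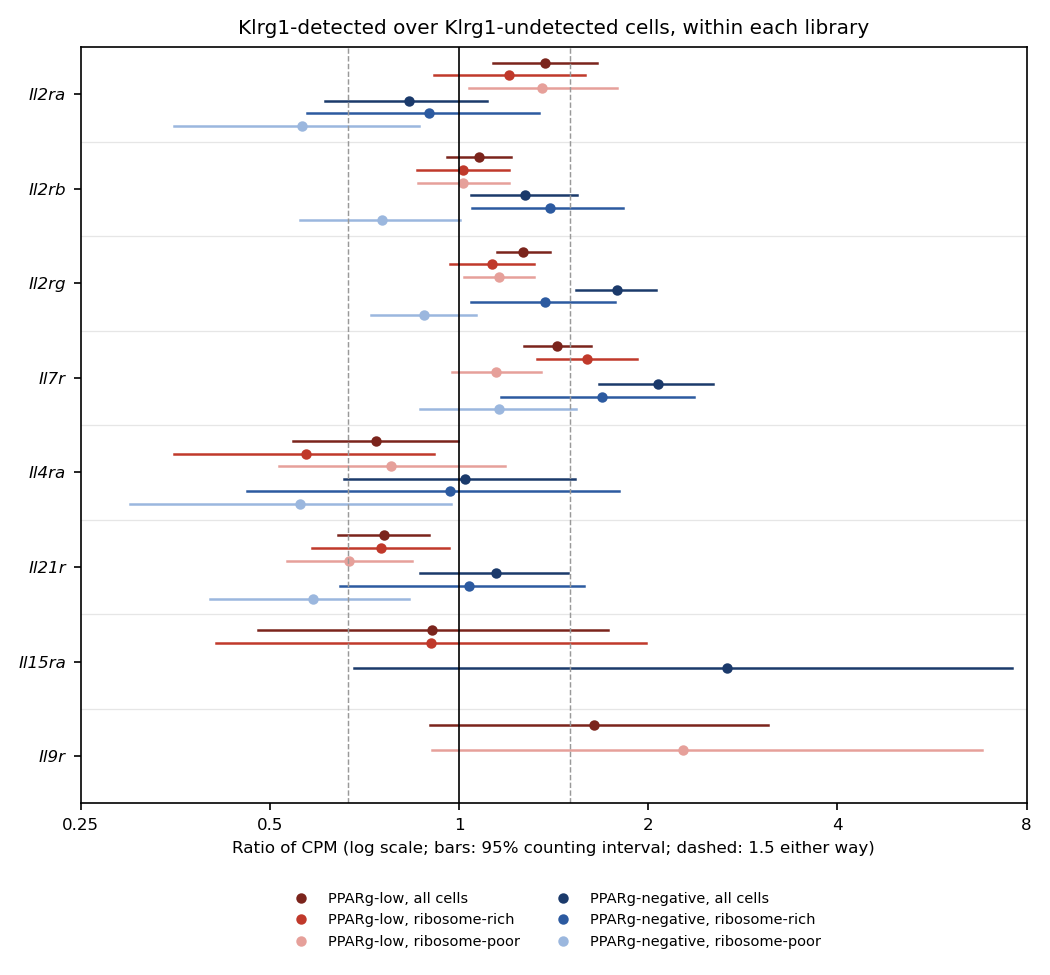
Ratio of CPM, Klrg1-detected over Klrg1-undetected cells (x axis, log scale), within the PPARg-low (reds) and PPARg-negative (blues) libraries, over all cells and within ribosome-rich and ribosome-poor cells, with 95% counting intervals and dashed lines at 1.5 in either direction. Il7r lies right of 1 in all 6 sets, and Il2ra lies right of 1 in the 3 PPARg-low sets and left of 1 in the 3 PPARg-negative sets.

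Set out over the 8 subsets that the 2 libraries, Klrg1 detection and ribosomal share define, the receptors had different orders of level. Il7r was highest in Klrg1-detected ribosome-poor PPARg-low cells (606 CPM) and lowest in Klrg1-undetected ribosome-rich PPARg-negative cells (150.5 CPM). Only neighbours in the order were compared, so subsets further apart can differ. Along that order the 4 ribosome-poor subsets did not differ from their neighbours beyond counting error, though the highest (551 to 665 CPM) and lowest of them (385 CPM, 333 to 443) had intervals apart. Klrg1-detected ribosome-rich PPARg-low cells (366 CPM) lay above the subset after them, and Klrg1-undetected ribosome-rich PPARg-low cells (229 CPM) above the last. Il2rg fell into 2 blocks, with the 4 ribosome-poor subsets between 861 and 1036 CPM and the 4 ribosome-rich subsets between 323 and 443 CPM, and the only neighbours that differed were those at the step between the blocks (1.94-fold, 1.48 to 2.59). Il2ra was highest in Klrg1-undetected ribosome-poor PPARg-negative cells (292 CPM) and lowest in the 2 ribosome-rich PPARg-low subsets (136 and 113 CPM), and the only neighbours that differed were Klrg1-detected ribosome-poor PPARg-low cells and the subset after them (1.34-fold, 1.14 to 1.56). Il4ra was highest in Klrg1-undetected ribosome-poor PPARg-negative cells (177 CPM), 1.72-fold above the next subset (1.18 to 2.53), and lowest in Klrg1-detected ribosome-rich PPARg-low cells (33.8 CPM), which lay below their neighbour (59.1 CPM). Il2rb had no pair of neighbours that differed, but its highest subset (549 CPM, 496 to 605) and its lowest (291 CPM, 277 to 307) had intervals apart.

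By likeness of pattern over those 8 subsets (Pearson r of log2(CPM + 10) among 4479 genes with 200 or more UMIs), the genes nearest to Il7r were Ctla4, an inhibitory receptor of Tregs (r = 0.99), Mfsd10 (0.98) and Tnfrsf1b, a tumour necrosis factor receptor (0.98). Nearest to Il4ra were Il6ra, the interleukin 6 receptor chain (0.98), Ifi203 (0.97) and Slc44a2 (0.96). Nearest to Il2ra were Ikbke, a kinase of innate signalling (0.97), Pced1b (0.97) and Fam26f (0.92). Nearest to Il2rg were Tap2 (0.99), H2-D1 (0.99) and Tmem50a (0.99), of which the first 2 serve antigen presentation, nearest to Il2rb Dido1 (0.98), Clptm1l (0.97) and Laptm4a (0.97), and nearest to Il21r Flt3l (0.98), Dock10 (0.98) and Zfp512 (0.97). Between receptors the highest r was 0.90, for Il4ra and Il21r, and for Il7r and Il4ra it was 0.27. The 8 subsets share libraries and differ in depth, so these are descriptions without a test.

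The ligands of the family were scarce in these cells. Of 7 ligand genes only Il2 was measured, with 60 UMIs (20.7 CPM) in the PPARg-low and 115 UMIs (19.5 CPM) in the PPARg-negative library (1.06, 0.763 to 1.46). Il7, Il9 and Il21 had 0 UMIs in both libraries, which allows up to 3 UMIs of each, and Il4 had 9 UMIs in the PPARg-low library and 0 in the PPARg-negative library.

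Of the 10 JAK and STAT genes, 3 were called higher and 0 lower in PPARg-low cells over all cells, near the 24.2 and 4.47% of all measured genes. The kinase bound by the shared chain, Jak3, had 114 UMIs (39.3 CPM) in the PPARg-low and 137 UMIs (23.2 CPM) in the PPARg-negative library (1.69, 1.31 to 2.18), Jak2 was 2.03-fold and Tyk2 1.67-fold higher. Jak1 lay at 1.03-fold, Stat5a at 1.09-fold, Stat5b at 1.40-fold and Stat6 at 1.08-fold. Within ribosome-rich cells Jak2, Tyk2 and Stat5b (1.66-fold) were called higher and 0 lower, where 17.2% of all genes were higher and 3.92% lower. Within ribosome-poor cells 0 were higher and Stat4 was lower (0.582-fold), where 6.82% of all genes were higher and 5.40% lower, with Jak3 at 1.03-fold.

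Among the listed partner chains and cytokine receptor chains outside the family, 4 of 9 measured were higher and 0 lower over all cells, beside 24.2 and 4.47% of all genes. The Il7r partner Crlf2 had 549 UMIs (189 CPM) in the PPARg-low and 405 UMIs (68.7 CPM) in the PPARg-negative library, 2.75-fold higher, and was 2.53-fold higher among ribosome-rich cells and at 1.28-fold among ribosome-poor cells. The interleukin 10 receptor chain Il10ra was 3.03-fold, Il12rb1 2.80-fold and the interferon gamma receptor chain Ifngr1 1.74-fold higher. In ribosome-poor cells 0 of 9 were higher and 3 were lower, Il6ra (0.458-fold), the shared interleukin 6 family chain Il6st (0.415-fold) and Il27ra (0.658-fold), beside 6.82% of all genes higher and 5.40% lower. In ribosome-rich cells Crlf2, Il10ra and Il12rb1 were higher and Il6ra lower, beside 17.2 and 3.92% of all genes.

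Of the 6 feedback genes that dampen these receptors, 2 were lower and 0 higher over all cells, and the same 2 genes were lower in both kinds of cells. Of all genes 4.47% were lower over all cells, 3.92% among ribosome-rich cells and 5.40% among ribosome-poor cells. Socs2 had 87 UMIs (30 CPM) in the PPARg-low and 501 UMIs (85 CPM) in the PPARg-negative library, a ratio of 0.353, with 0.409 among ribosome-rich cells and 0.217 among ribosome-poor cells. Socs3 had 266 UMIs (91.7 CPM) and 911 UMIs (154 CPM), a ratio of 0.593, with 0.624 and 0.471 within the 2 kinds of cells. Cish, an interleukin 2 and Stat5 target, lay at 1.13-fold (0.961 to 1.33).

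Of 9 target and survival genes, 1 was higher over all cells (Bcl2l1) and 1 lower (Bcl2), where 24.2% of all genes were higher and 4.47% lower. The survival gene Bcl2, known as a target of interleukin 7 signalling in T cells, had 357 UMIs (123 CPM) in the PPARg-low and 2930 UMIs (497 CPM) in the PPARg-negative library, a ratio of 0.248, with 0.233 among ribosome-rich cells and 0.245 among ribosome-poor cells. Bcl2l1, which encodes another survival protein, had 170 UMIs (58.6 CPM) in the PPARg-low and 161 UMIs (27.3 CPM) in the PPARg-negative library, a ratio of 2.15, with 1.94 among ribosome-rich cells and 1.33 among ribosome-poor cells. Mcl1 lay at 0.980-fold, Ccnd2 at 0.975-fold, Myc at 0.821-fold and Pim1 at 1.29-fold. The median log2 ratio over all cells was 0.27 for JAK and STAT genes, 0.26 for partner chains, -0.25 for feedback genes and -0.03 for targets, beside 0.29 for all measured genes.

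**Figure D5:**
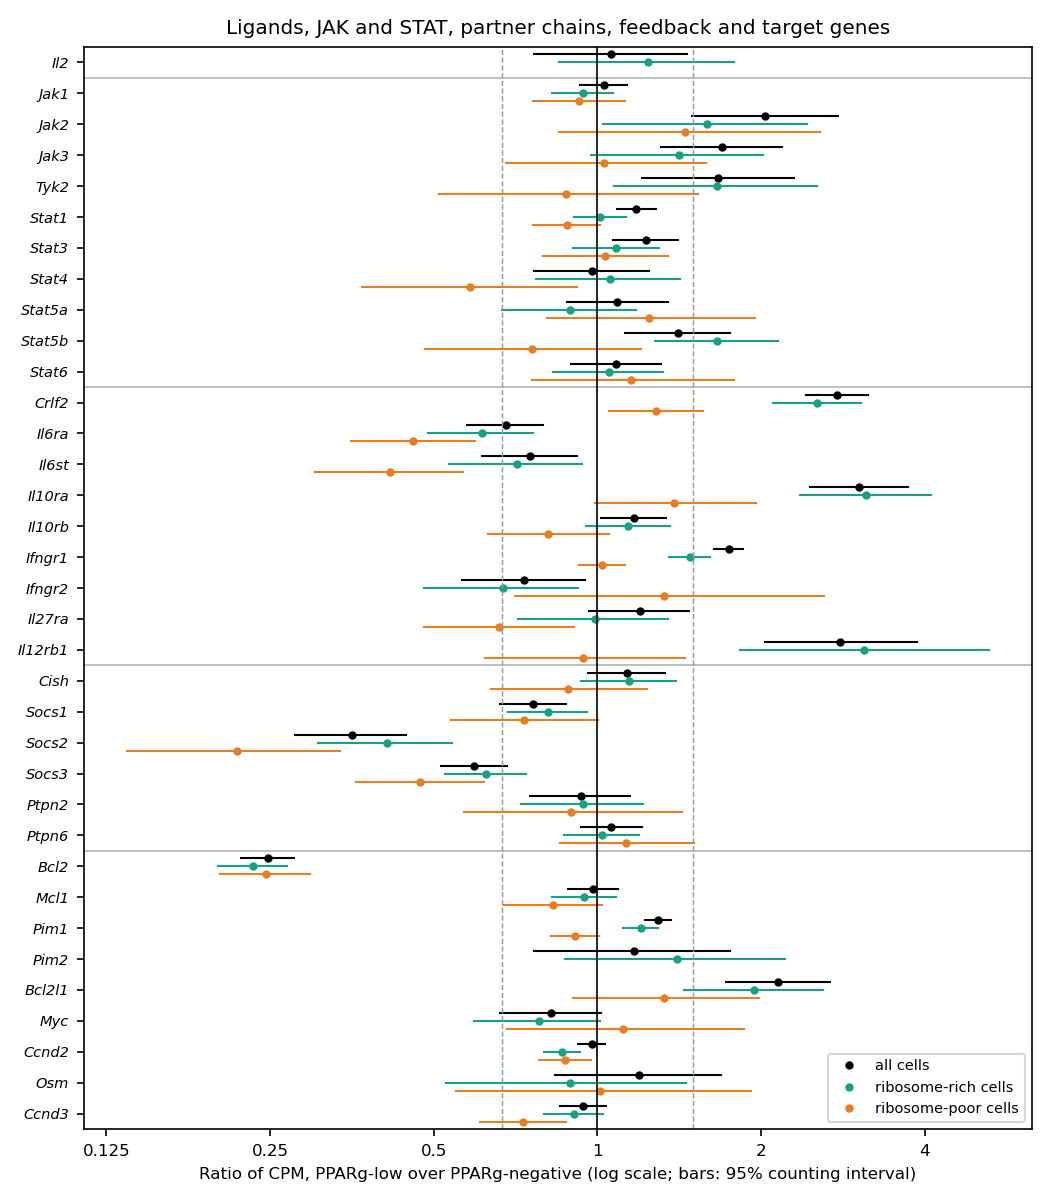
Ratio of CPM, PPARg-low over PPARg-negative (x axis, log scale), for the measured ligand, JAK and STAT, partner chain, feedback and target genes (rows, lists parted by lines), over all (black), ribosome-rich (green) and ribosome-poor cells (orange), with 95% counting intervals and dashed lines at 1.5 in either direction. Bcl2, Socs2 and Socs3 lie left of the dashed line in all 3 sets of cells, whereas Crlf2, Il10ra and Il12rb1 lie right of it in all and ribosome-rich cells and nearer to 1 in ribosome-poor cells.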

How the data were processed

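The authors deposited raw UMI counts, a gene by cell barcode matrix for each library, made with the 10x Chromium 3′ chemistry of version 2, per the labels' protocols. Cell Ranger 2.1.0 and mm10 were used, per the submitters' processing notes; which annotation was counted is not given in the sources used here. Per cell, 10% mitochondrial UMIs and 200 genes were the limits. Ribosomal share was the percent of UMIs from 101 ribosomal protein genes, and 6.11% of PPARg-low and 2.89% of PPARg-negative cells lay within 18 to 22%. Klrg1 detection meant 1 or more UMIs. Counts were summed over cells, and ratios had exact conditional binomial intervals. The intervals were run on Poisson counts simulated for whole pools, the same model they assume. That run held no spread between cells, mice or libraries, so it checks the computation and not the fit to these data. With 1 library per group, no p-value was computed. Scrublet in scanpy 1.11.5 marked 11 PPARg-low (0.679%) and 8 PPARg-negative cells (0.304%) as doublets, which were kept, so undetected doublets remain possible. The Cd79b and Cst3 transcripts of the B cell and myeloid lists were found in 4.63 and 36.6% of PPARg-low and 4.37 and 27.1% of PPARg-negative cells, and of the other B cell and myeloid markers a UMI was found in 12 PPARg-low and 13 PPARg-negative cells.

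The 8 genes, the marker and pathway lists, the splits and the comparisons were chosen with earlier results of these data known, and the 4 promoter motifs after their matches were seen. The genes named are the 8 receptors, members of the pathway lists, the 3 genes nearest each receptor with 200 or more UMIs, and checks of the labels. Alternatives covered cell filters, doublets, denominators, cell weights, thinning, centring and the limits of both splits. Scripts ran in Python 3.11.15 with pandas 2.3.3, scipy 1.17.1, numpy 2.4.6 and, for plots, matplotlib 3.10.9.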

Additional observations from a re-analysis of the deposited data

Results flagged for a closer look

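Il2ra went opposite ways with Klrg1 detection in the ribosome-poor cells of the 2 libraries. In the PPARg-low library it had 259 CPM (191 UMIs) in Klrg1-detected and 191 CPM (80 UMIs) in Klrg1-undetected cells, a ratio of 1.36 (1.04 to 1.78). In the PPARg-negative library it had 164 CPM (25 UMIs) in Klrg1-detected and 292 CPM (147 UMIs) in Klrg1-undetected cells, a ratio of 0.563 (0.353 to 0.864). What drew attention was that the 2 counting intervals lie on opposite sides of 1. Il2ra was picked for this after the receptor genes had been compared in several sets of cells. The share of all genes with intervals on opposite sides of 1 is not given, so this result has no background to be read against. The difference between the libraries was not tested, since each group is 1 library, and 90 Klrg1-detected ribosome-poor cells stand behind the PPARg-negative value.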

How the results depend on the processing

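Of 779 log2 ratios recomputed, 683 stayed within the main counting interval, 0 called ratios changed sign, 25 calls ended and 25 were gained. These counts cover only receptors measured in both settings. A call lost because a receptor fell under 30 UMIs is not among the 25. Of 121 counts of called genes or pairs, 99 stayed within 1.5 times of the main count. The share of all genes called was not counted under the alternatives, so the counts of receptors below have no background beside them. With at most 5% mitochondrial UMIs, receptors called numbered 0 between the libraries in ribosome-poor cells (1 in the main comparison), 1 in Klrg1-detected cells (0), 2 with Klrg1 in the PPARg-low library (0), and 4 and 3 with ribosomal share in the PPARg-low and PPARg-negative libraries (7 and 6); fewer ribosome-poor cells were left. Between the libraries in Klrg1-detected cells 1 receptor, Il4ra, was called with 500 or more genes per cell, equal weights, centring on all genes, or B cell and myeloid UMIs left out. With Klrg1 in the PPARg-low library, 1 was called with 500 genes, equal weights or Klrg1 read after thinning, and in the PPARg-negative library 1 (2) without ribosomal and mitochondrial UMIs or with centring. With equal weights, here and above, receptors were called by size alone, without a counting interval, so those counts follow a looser rule than the main ones. Equal weights gave 3 receptors in ribosome-poor cells, where Il7r and Il21r joined Il4ra. In ribosome-rich cells thinning gave 2 receptors (5) and a 25% ribosomal limit 3. With ribosomal share in the PPARg-low library, centring and a 25% limit gave 4 each. Shares with intervals apart numbered 4 when thinned and 7 without thinning, where Il2ra, Il4ra and Il21r were lower in the shallower PPARg-low library. How many of all genes had shares with intervals apart was not counted at either depth. Pairs of receptors with shares apart over all cells of a library, with either gene as the partner, numbered 5 at 500, 0 at 750 and 2 at 1000 UMIs. The cause of each change was not tested unless named. Shared barcodes, B cell and myeloid UMIs and the 500 and 1000 UMI thinnings of pairs were alternatives chosen after seeing the data. No paired analysis was possible because each group is 1 library. Il15ra and Il9r are limited by depth, with under 60 UMIs per library each.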
